A study of Mus musculus with 24 samples.

Results

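Cathepsins are proteases that work mainly in the lysosome, and 10 of their genes are described here in mouse melanoma and myeloid cell lines: Ctsk, Ctsa, Ctsb, Ctsc, Ctsd, Ctsf, Ctsh, Ctsl, Ctss and Ctsz. The 10 genes were chosen by symbol from the 45547 names on the array, and Ctsk was selected on its own signal in DB#3 against D, so that difference is given as a description with no test. Gene expression was measured in total RNA of 7 lines on 24 single-colour arrays, 1 sample per array. B16F1-GFP-M (called M, 3 arrays) is the parental melanoma line, marked with green fluorescent protein. B16F1-GFP-D (D, 4 arrays) was recovered from mice in long dormancy after vaccination with irradiated cells that overexpressed GM-CSF, and a later generation of dormant cells from the brain gave B16F1-GFP-DB#1 (DB#1, 4 arrays), a line B16F1-GFP-DB#2 (DB#2, 3 arrays) and a line B16F1-GFP-DB#3 (DB#3, 3 arrays). All 5 melanoma lines were grown in DMEM with 10% serum, so the arrays measured cultures amplified in vitro and not cells in the animal. The myeloid cells are labelled M0_p20 (called M0, 4 arrays) and J365_p20 (J365, 3 arrays), and the labels give no further word on their origin. The paper describes its myeloid cells as parental and dormant DA1-3b leukemia cells, the dormant ones from mice vaccinated with cells overexpressing another cytokine. It does not use the names M0 and J365, so those names are kept here. Each line is 1 line, its arrays are not stated to come from separate cultures, and the p-values then measure only the spread between these samples.

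Most members are cysteine proteases made as inactive proenzymes, carried to the lysosome by mannose 6-phosphate receptors and activated there at acid pH. Cathepsin D is an aspartic protease, and cathepsin A is a serine carboxypeptidase that also protects the lysosomal enzymes neuraminidase and beta-galactosidase. Cathepsin K is best known as the collagen-degrading enzyme of osteoclasts, cathepsin S as an enzyme of antigen-presenting cells, and cathepsin C as the activator of the granule proteases of blood cells. In pigment cells MITF, and in most cells its relatives TFEB and TFE3, bind E-box elements in promoters, among them those of many lysosome genes.

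All levels below are normalized log2 signals, which are the log2 probe intensity less the 75th percentile of the array, so that 0 is the 75th percentile. They order lines for 1 probe and not genes against each other. Between 43.6% and 53.8% of probes were well above background on 23 arrays, and 89.9% on D replicate 3. Per array, the mean of 8 melanoma markers lay between 6.07 and 7.08 on melanoma arrays and between -5.40 and -5.05 on myeloid arrays. For 8 blood markers it lay between -5.02 and -2.47 and between 1.37 and 2.31, the highest melanoma value being that of D replicate 3. For the 10 cathepsin genes, values that rest on D are therefore also given without single D arrays where that changes a call. For genes of other lists the number of alternatives that lost the call is given instead, but not for cell markers.

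Promoter sequence was taken from RefSeq, which held an entry for 8 of the 10 genes (9 entries in all). The 250 bases before the start site are shown for Ctsk, whose signal varied most between the melanoma lines, for Ctss, which lies close to it on chromosome 3, and for Ctsd, a lysosomal member with 2 E-box matches. Capitals mark CACGTG, the core of the lysosomal E-box element, which reads the same on both strands; without capitals there was no match. Ctsk lies at chr3:95498960-95499209 and Ctss at chr3:95526536-95526785 on the plus strand and Ctsd at chr7:142387828-142388077 on the minus strand of GRCm38.p6.
Ctsk: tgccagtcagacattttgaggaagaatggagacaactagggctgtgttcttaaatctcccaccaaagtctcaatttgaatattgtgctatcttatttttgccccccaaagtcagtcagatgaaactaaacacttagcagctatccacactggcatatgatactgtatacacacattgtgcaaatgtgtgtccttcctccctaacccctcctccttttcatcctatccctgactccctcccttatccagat
Ctss: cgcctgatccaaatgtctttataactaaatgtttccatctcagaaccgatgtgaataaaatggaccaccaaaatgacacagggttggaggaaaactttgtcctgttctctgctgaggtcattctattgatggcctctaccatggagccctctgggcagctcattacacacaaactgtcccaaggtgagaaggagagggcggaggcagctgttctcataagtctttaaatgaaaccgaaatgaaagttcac
Ctsd: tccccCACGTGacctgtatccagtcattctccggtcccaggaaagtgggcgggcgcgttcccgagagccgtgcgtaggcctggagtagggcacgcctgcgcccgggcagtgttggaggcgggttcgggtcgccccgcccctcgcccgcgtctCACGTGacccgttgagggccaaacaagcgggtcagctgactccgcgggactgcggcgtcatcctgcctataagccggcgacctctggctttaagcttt
CACGTG occurred before 4 of the 8 genes (Ctsa at 1 of its 2 starts, Ctsd, Ctsf and Ctsl) and in 6.02% of the 32851 windows of the same length. CATGTG, searched on both strands as CACATG too, occurred before 0 of the 8 and in 12.3% of all windows, and TGACTCA (or TGAGTCA) before none of them and in 4.46%. Ctsk and Ctss held none of the letters searched. These are letter matches and not binding sites.

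Ctsk (NCBI Gene 13038, chromosome 3) had the widest range among the melanoma lines. Its probe read -0.19, -0.46 and -0.32 on the 3 DB#3 arrays and -1.73, -1.75 and -2.22 on the 3 DB#2 arrays. On the D arrays it read -2.0, -2.63, -3.32 and -3.19, on the M arrays -2.95, -3.35 and -3.09, and on the DB#1 arrays -3.33, -3.91, -3.38 and -3.37. Each DB#3 array was thus above every other array of the series. In the order of means the lines ran DB#3 (-0.32 ± 0.13, SD, n = 3), DB#2 (-1.90 ± 0.28, SD, n = 3), D (-2.79 ± 0.60, SD, n = 4), M (-3.13 ± 0.21, SD, n = 3) and DB#1 (-3.50 ± 0.28, SD, n = 4). DB#3 did not overlap its neighbour DB#2, but DB#2 and D, D and M, and M and DB#1 overlapped. The probe was well above background on all 17 melanoma arrays and on 0 of the 7 myeloid arrays. In RNA of whole cultures, fewer cells with the transcript and less transcript per cell cannot be told apart.

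**Figure D1:**
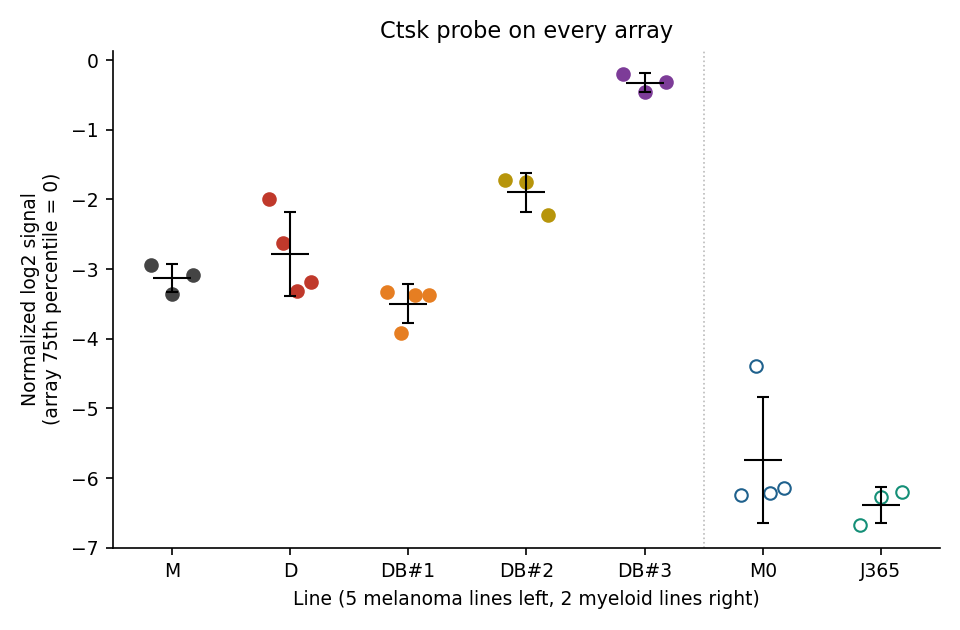
Normalized log2 signal of the Ctsk probe (vertical axis, 0 is the array's 75th percentile) on every array of the 7 lines (horizontal axis), filled where well above background and open where not, with the mean and SD of each line in black. DB#3 lies between -0.46 and -0.19, above all other arrays, and no myeloid array is well above background.

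DB#3 exceeded D by 2.46 for Ctsk, a 5.51-fold difference, and the difference was 3.00, 2.86 and 2.0 within the 3 slides. DB#3 exceeded M by 2.81 (7.0-fold), with 2.76, 2.90 and 2.77 within the slides. The second was 1.76 with normexp background correction and 3.03 with the replicate block. Both differences rest on the signal that chose the gene and were not tested. Without D replicates 1 and 3 together DB#3 minus D was 2.59, and it was 3.13 after quantile normalization and 1.67 with normexp background correction. D minus M was 0.35, with -0.24, 0.03 and 0.78 within slides, and it turned to -0.33 after quantile normalization.

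The lines DB#1 and DB#2 allow a test of Ctsk against M, since neither chose the gene. DB#2 was 1.23 ± 0.39 (SE) higher than M, a 2.35-fold difference with an adjusted p of 0.10 (limma), so it was not called at 0.05, although no DB#2 array overlapped an M array. With slide as a block the adjusted p was 0.0294, and within slides the difference was 0.73, 1.63 and 1.34. With normexp background correction it fell to 0.47 (adjusted p 0.297, limma). DB#1 differed from M by -0.37 ± 0.36 (SE; 95% interval -1.12 to 0.39; adjusted p 0.846). In these comparisons 3.44% and 3.69% of all genes tested were called.

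The other cysteine cathepsins with broad expression were read on all melanoma arrays, and their lines mostly overlapped. Ctsb, an abundant endopeptidase that also trims dipeptides, had line means from 6.62 ± 0.74 (SD, n = 4) in D to 7.13 ± 0.16 (SD, n = 3) in DB#2, and lines next to each other in the order of means overlapped. Ctsl, a lysosomal endopeptidase, read 4.59, 4.47 and 4.62 in M and 5.30, 5.08, 5.05 and 5.02 in DB#1, the lines with the lowest and the highest mean. Ctsz, a carboxypeptidase, ran from 5.64 ± 0.26 (SD, n = 3) in DB#2 to 6.08 ± 0.22 (SD, n = 3) in DB#3. Ctsh, an aminopeptidase, was lowest in M (1.14 ± 0.30, SD, n = 3) and highest in DB#3 (1.82 ± 0.27, SD, n = 3). It has 3 probes, and in DB#3 against M they gave differences of 0.68, 0.71 and 1.10. Ctsc read 0.87, 0.54 and 0.83 in M and 0.89, 0.58, -0.01 and 0.31 in D. In the 3 DB lines it lay between 0.92 and 1.21, so that every DB array was above every M and D array.

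Ctsa and Ctsd, the members that are not cysteine proteases, had line means close together. Ctsa was lowest in D (5.93 ± 0.42, SD, n = 4) and highest in M (6.17 ± 0.10, SD, n = 3). Ctsd was lowest in D (6.95 ± 0.82, SD, n = 4) and highest in DB#3 (7.19 ± 0.26, SD, n = 3). The last pair were near background. Ctsf, a cysteine cathepsin, read -3.77, -3.81 and -3.91 in M and -2.89, -3.77, -1.89 and -3.36 in D, where replicates 1 and 3 were the high ones. Ctss was well above background on 1 of the 17 melanoma arrays, D replicate 3 (-3.21), and its other melanoma values lay between -6.66 and -4.92.

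**Figure D2:**
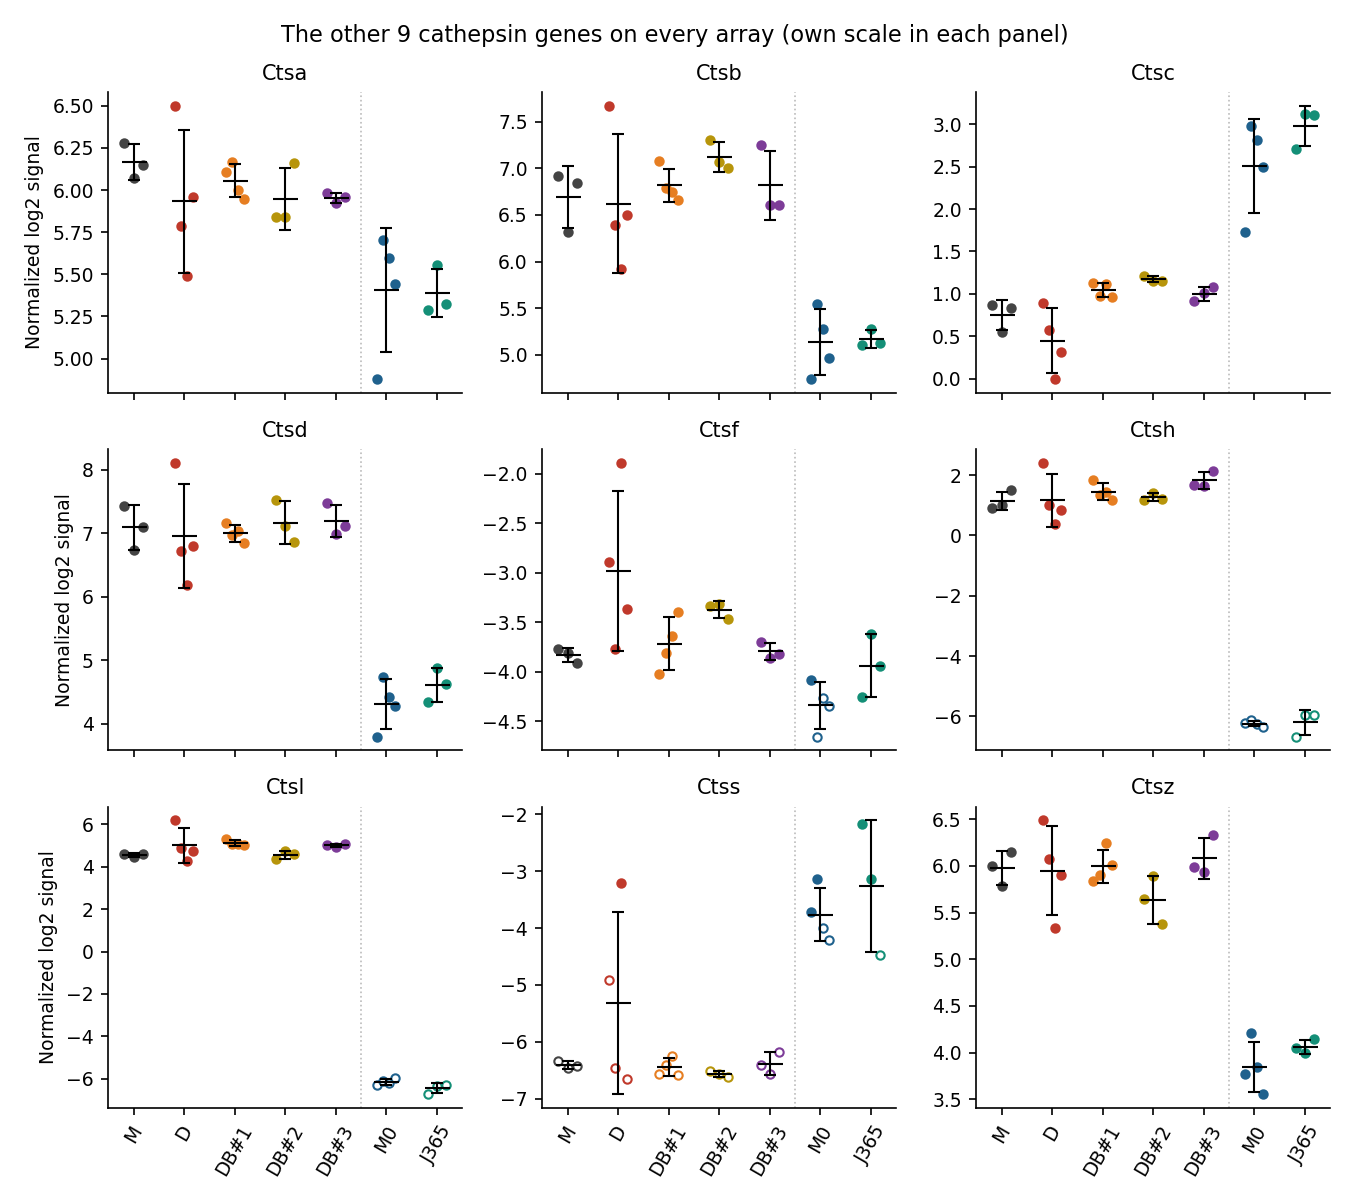
Normalized log2 signal (vertical axis, its own scale in each panel) of the other 9 cathepsin genes on every array of the 7 lines, filled where well above background and open where not, with the mean and SD of each line in black. Melanoma lines overlap for most genes, D spreads most, and Ctsh and Ctsl fall to unread values in the myeloid lines M0 and J365.

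Apart from Ctsk, 8 of the 9 genes could be tested between melanoma lines, Ctss being read in none of the lines throughout. In D against M 0 of the 8 were called (2.97% of all genes tested were called), in DB#1 against M 0 (3.69%), in DB#2 against M 0 (3.44%) and in DB#3 against M 0 (2.76%). Against D, 0 of the 8 were called for DB#1 (0.475% of all genes), 0 for DB#2 (6.34%) and 0 for DB#3 (0.369%). With limma 6 of these 56 values had an unadjusted p under 0.05, a share that over all genes ran from 4.2% to 17.4% between comparisons: Ctsf in D against M, Ctsc and Ctsf in DB#1 against D and in DB#3 against D, and Ctsc in DB#2 against D. The 56 differences lay between -0.81 and 0.86, and the 95% interval stayed within 2-fold either way for 41 of them and reached past it for 15. A 2-fold change therefore cannot be set aside for those 15.

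**Figure D3:**
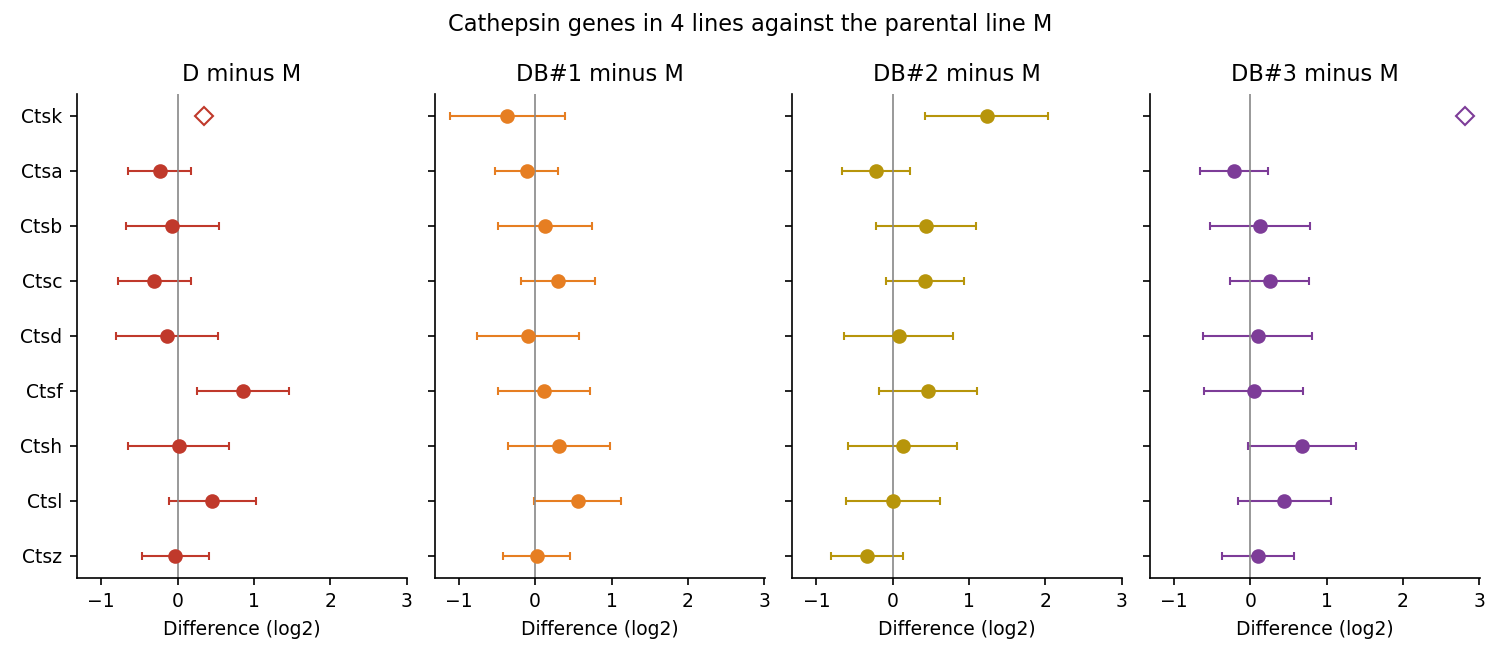
Difference of D, DB#1, DB#2 and DB#3 from M on the log2 scale (horizontal axis) for the 9 genes read in the melanoma lines (vertical axis). Circles carry 95% intervals, and the open diamonds are Ctsk in D and DB#3, given without an interval because DB#3 against D chose the gene; DB#3 minus M is 2.81 for Ctsk and at most 0.68 for the other genes.

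The value nearest to a call was Ctsc in DB#2 against D. The DB#2 arrays read 1.21, 1.15 and 1.15, above the 4 D arrays. The difference was 0.73 ± 0.23 (SE; adjusted p 0.0657, limma), and the slide block gave 0.77 (adjusted p 0.0132). Ctsf was 0.86 ± 0.29 (SE; adjusted p 0.147, limma) higher in D than in M, and it was 1.12 without D replicate 2 (adjusted p 0.0269), 0.49 without D replicate 3 (adjusted p 0.260) and 0.27 without D replicates 1 and 3 (adjusted p 0.733). Without D replicate 1, 2 further genes passed: Ctsb in DB#2 against D (0.86, adjusted p 0.0207, against 0.51 with all arrays) and Ctsh in DB#3 against D (1.08, adjusted p 0.0298, against 0.66 with all arrays). Without D replicate 3 the same differences fell to 0.27 for Ctsb (adjusted p 0.723, limma) and 0.40 for Ctsh (adjusted p 0.990). Ctsc in DB#2 against D also passed without D replicate 1 (0.88, adjusted p 0.0211, limma).

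Single D arrays stood apart across the members. D replicate 1 was the highest of the 17 melanoma arrays for 6 of the 10 genes (Ctsa, Ctsb, Ctsd, Ctsh, Ctsl and Ctsz), for example 8.11 for Ctsd against 6.19 to 6.80 on the other D arrays. D replicate 3 was the lowest for 7 (those 6 and Ctsc) and the highest for Ctsf and Ctss. Over the 9 members read on every melanoma array, the median deviation from each gene's median was 0.88 on D replicate 1 and -0.59 on D replicate 3, and it lay between -0.31 and 0.25 on the other arrays. The 21 other lysosome genes read on these arrays moved likewise, with 0.45 and -0.61 on the same arrays. D replicate 1 had the lowest share of probes well above background (43.6%) and D replicate 3 the highest (89.9%), and the part of signal quality in these deviations was not tested.

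**Figure D4:**
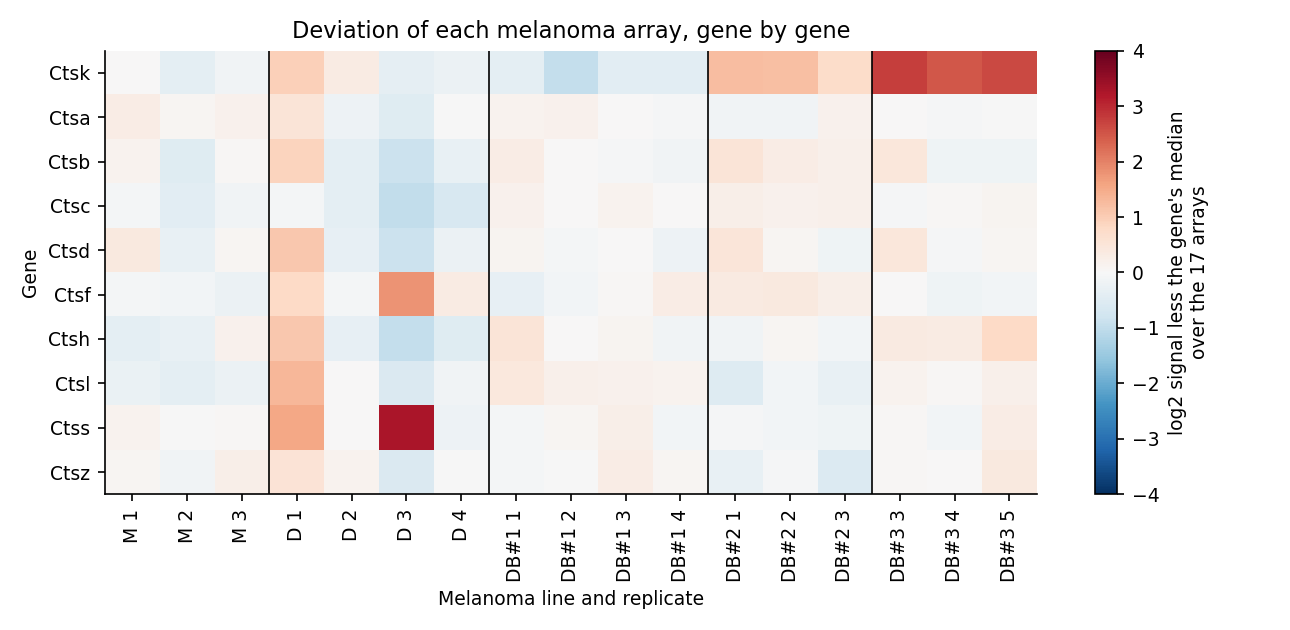
Deviation of each melanoma array (horizontal axis, line and replicate) from the gene's median over the 17 arrays, for the 10 cathepsin genes (vertical axis), with red above and blue below the median on the log2 scale. The 3 DB#3 arrays are red for Ctsk, while D replicate 1 is high and D replicate 3 low for most other genes; Ctss is well above background on D replicate 3 alone.

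In the myeloid cells the family had a different make-up. Ctsa, Ctsb, Ctsc, Ctsd and Ctsz were read on all 7 myeloid arrays, while Ctsk, Ctsh and Ctsl were read on none. Ctss was read on 2 of 4 M0 arrays (-3.72 and -3.14, the others at -4.0 and -4.21) and on 2 of 3 J365 arrays (-2.17 and -3.15, the other at -4.48). Ctsf was read on 1 of 4 M0 arrays and on all 3 J365 arrays. J365 against M0 had 6 testable members, of which 0 were called and 0 had an unadjusted p under 0.05, beside 1.47% of all genes called. The widest of these differences was that of Ctsc, 2.98 ± 0.24 (SD, n = 3) in J365 and 2.51 ± 0.55 (SD, n = 4) in M0, a difference of 0.48 (95% interval -0.01 to 0.96; adjusted p 0.590, limma). Whether the step from M to D differed from that from M0 to J365 was tested as an interaction, and 0 of 8 members were called (2.08% of all genes), with 1, Ctsc, at an unadjusted p under 0.05. For Ctsh and Ctsl the myeloid step lay between unread values, and for Ctsf only 1 of 4 M0 arrays was read. The interaction thus sets 2 measured steps side by side only for Ctsa, Ctsb, Ctsc, Ctsd and Ctsz.

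Melanoma and myeloid cells were set side by side as M against M0, where 58.5% of all genes tested were called. Apart from Ctsk, 8 members were tested, 6 were called higher in M (27.7% of all genes were) and 1, Ctsc, was called lower (30.8% of all genes). Of the 6, Ctsa, Ctsb, Ctsd and Ctsz were read on every array of both lines. Ctsd was 2.78 ± 0.32 (SE) higher in M (adjusted p 2.49e-07, limma), Ctsz 2.13 ± 0.21 (SE) and Ctsb 1.56 ± 0.30 (SE). Ctsa was 0.76 ± 0.20 (SE) higher, the least of those called. Ctsc read 0.87, 0.54 and 0.83 in M and between 1.73 and 2.98 in M0, a difference of -1.76 ± 0.23 (SE; adjusted p 1.48e-06, limma).
For 3 members, read on every M array and on no M0 array, only a bound can be given. They were tested only because M read them, so they had to be higher there and their p-values are given as a description. Ctsl was at least 402-fold higher in M (adjusted p 4.14e-18, limma), Ctsh at least 37.6-fold (adjusted p 3.03e-14) and Ctsk at least 1.94-fold (adjusted p 2.95e-06). The bound sets the M mean against the lowest signal that counted as well above background on each M0 array. With normexp background correction the Ctsk difference fell to 0.42 with an adjusted p of 0.0594 (limma) and was no longer called. Ctsf was 0.50 higher in M (adjusted p 0.147, limma) and was not called, and Ctss was not tested because neither line read it throughout.

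**Figure D5:**
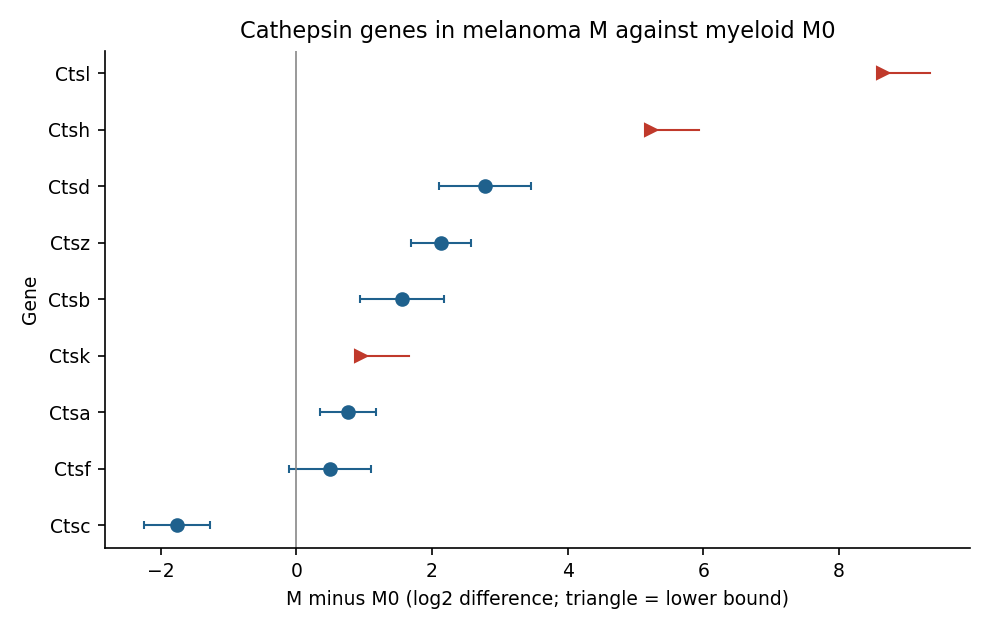
Log2 difference of M minus M0 (horizontal axis) for the 9 cathepsin genes tested (vertical axis). Blue circles carry 95% intervals and red triangles are lower bounds for genes not well above background in M0; Ctsl has the largest bound, 8.65, and Ctsc alone lies below 0 at -1.76.

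The remaining cathepsin genes of the array gave little to compare. Of 13 others, among them Ctse, Ctsg, Ctso, Ctsw and 9 mostly placental genes, none was read on every array of any line, so 0 could be tested. Inhibitors of cysteine cathepsins formed the next list of 12, of which 3 were read in the melanoma lines: Cst3 (cystatin C, secreted), Cst6 (cystatin M) and Cstb (stefin B, cytosolic). Between melanoma lines 0 of the 3 were called in any of the 7 comparisons, and Cst3 means lay between 5.22 and 5.40. In M against M0, 7 inhibitors were tested, and 2 were called higher in M (27.7% of all genes) and 4 lower (30.8%). Cst6 was at least 389-fold higher in M. Cst7 (cystatin F, an inhibitor of blood cells) was at least 378-fold lower and Ctla2a, which resembles a cathepsin propeptide, at least 866-fold lower. Of these 6 calls 4 rest on a probe that 1 of the 2 lines did not read, and Ctla2b was read on 1 of 3 M arrays. All these genes were tested only through the line where they are high, so their calls are a description. With the 4 unread probes at their bound the median difference over the 7 was -1.71, beside -0.13 over all genes tested.

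Genes for the delivery and activation of cathepsins (11, all tested in the melanoma lines) gave 3 calls in the 7 melanoma comparisons. These were 1 in D against M, where 2.97% of all genes were called, and 2 in DB#2 against D (6.34%). For Sort1 (sortilin, a sorting receptor) D minus M was -0.52 ± 0.12 (SE; adjusted p 0.0152, limma), and the call was lost in 6 of 17 alternatives. In DB#2 against D, Gnptab, a subunit of the enzyme that starts the mannose 6-phosphate tag, was 0.76 ± 0.17 (SE) higher (adjusted p 0.00747, limma), and Neu1, the neuraminidase that cathepsin A protects, was 0.78 ± 0.22 (SE) higher (adjusted p 0.0358). The call of Neu1 was lost in 9 of 17 alternatives and that of Gnptab in 2. Lgmn (legumain, which processes cathepsins) was -0.81 in DB#2 against M (adjusted p 0.265, limma). Against M0, M had 7 of the 11 higher (27.7% of all genes), led by Igf2r (4.05), the larger mannose 6-phosphate receptor, and Lrp1 (1.96), and 2 lower (30.8% of all genes), Furin (-1.70) and Glb1 (-1.36). Lrp1 was read on 3 of 4 M0 arrays, so it was tested through M alone and its value is a description. With slide as a block the melanoma comparisons gave 7 calls in place of 3, of which 2 in D against M, 1 in DB#2 against M, 1 in DB#3 against M and 3 in DB#2 against D. The share of all genes called with slide as a block is not given here, so this rise was not set against it.

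Other lysosome genes numbered 22, of which 21 were tested. In the melanoma lines Psap, the saposin precursor, was the one gene called by the fit without a slide term: it was 4.58 ± 0.14 (SD, n = 3) in M, 3.88 ± 0.45 (SD, n = 4) in D, 3.84 ± 0.17 (SD, n = 4) in DB#1 and 4.71 ± 0.07 (SD, n = 3) in DB#2. DB#1 minus M was -0.74 ± 0.20 (SE; adjusted p 0.0484, limma), and the call was lost in 8 of 16 alternatives. DB#2 minus D was 0.83 ± 0.20 (SE; adjusted p 0.0161, limma), lost in 5 of 17. The 2 calls were thus 1 of the 21 in DB#1 against M (3.69% of all genes) and 1 in DB#2 against D (6.34%). With slide as a block there were 6 calls of lysosome genes in place of 2, 1 each in D, DB#1 and DB#2 against M and in DB#1 against D and 2 in DB#2 against D. This rise, too, was not set against the share of all genes called with the block. The median over the 21 genes was -0.27 in D, -0.24 in DB#1, -0.01 in DB#2 and -0.25 in DB#3 against M. Over all genes it was -0.01, 0.04, 0.02 and 0.03. Against D the 21 genes had 0.06 in DB#1, 0.28 in DB#2 and 0.04 in DB#3, beside 0.05, 0.03 and 0.06 over all genes. In M against M0 17 of the 21 were higher in M (27.7% of all genes tested were called higher and 30.8% lower), with the largest values for Lamp2 (2.41), a lysosomal membrane protein, and Hexa (2.30), a hexosaminidase subunit, and 2 were lower, Cd68 (-1.88) and Mcoln1 (-0.96). The median was 1.24. That of the 8 cathepsins tested was 1.84, but Ctsh, Ctsl and Ctsf were among them only because M read them throughout. The 2 medians therefore cannot be compared.

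Of 8 regulators, Mitf, Tfeb and Tfe3 were tested between melanoma lines and 0 were called in any of the 7 comparisons. Mitf, the master regulator of pigment cells, had means of 6.57 in M, 6.58 in D, 6.74 in DB#1, 6.73 in DB#2 and 6.71 in DB#3, a range narrower than the spread within D. Against M0, M was higher for Mitf (5.33) and lower for Nfatc1, a driver of osteoclast genes (at least 58.5-fold), tested through M0 alone. Spi1, which encodes the myeloid factor PU.1, had a mean of -1.40 in M0 and was read on 1 of 3 M arrays. J365 had 1.19 ± 0.29 (SE) more Mitf signal than M0 (adjusted p 0.0477, limma), lost in 9 of 16 alternatives.

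Cathepsin K degrades collagen beside other matrix enzymes, and 12 genes of matrix turnover were followed with it. Against M, 0 of 8 tested were called in D (2.97% of all genes), 1 of 9 in DB#1 (3.69%) and 1 of 9 in DB#3 (2.76%). In DB#2 against M 1 of 11 was called higher and 1 lower (3.44%). Against D, 1 of 9 was called in DB#1 (0.475%) and 0 of 9 in DB#3 (0.369%). In DB#2 against D 1 of 11 was called higher and 1 lower (6.34%). Acp5, the tartrate-resistant phosphatase that osteoclasts make along with cathepsin K, was called higher in DB#1 than in M (at least 3.07-fold, adjusted p 0.000182, limma) and higher in DB#3 than in M (at least 2.24-fold, adjusted p 0.00844). These are bounds because no M array read it, and it was tested against M only through the lines where it is high, so both p-values are a description. The second call was lost in 7 of 15 alternatives. Acp5 was 1.42 ± 0.26 (SE) higher in DB#1 than in D (adjusted p 0.00739, limma; lost in 3 of 18 alternatives, with a lowest difference of 0.63) and 0.97 ± 0.28 (SE) higher in DB#3 than in D (adjusted p 0.242). Acp5 was read on 3 of 4 D arrays and so was tested against D only through DB#1 and DB#3, again a description. Its mean was highest in DB#1 (-2.53), the line with the lowest Ctsk among the melanoma lines. Plau, the urokinase that activates plasminogen, read -1.42 ± 0.69 (SD, n = 3) in DB#2 and was at least 7.33-fold higher there than in M (adjusted p 3.6e-05, limma), where no array read it, so that it was tested through DB#2 alone. Its receptor gene Plaur was lower in DB#2, with a difference of -0.97 from M (adjusted p 0.0146, limma; lost in 5 of 15 alternatives) and of -1.31 from D (adjusted p 0.000317; lost in 1 of 17). The collagen gene Col1a2 was lowest in DB#3 (-1.58 ± 0.10, SD, n = 3) and highest in DB#2 (0.47 ± 0.12, SD, n = 3) and was called in neither comparison with M.

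Markers of other cells were read in each line beside Ctsk, whose level in fibroblasts, macrophages and osteoclasts can be high. Per array, the mean of 8 fibroblast markers was -5.05 to -4.86 in DB#3 and -4.78 to -2.91 in the other melanoma lines, the highest on a D array. In DB#3, 5 of the 8 were read on no array, namely Col1a1, Col3a1, Dcn, Lum and Thy1, and in M and DB#2 4 each. The mean therefore rests largely on unread probes and does not order the lines. Col3a1, Lum and Thy1 were each read on 1 of the 17 melanoma arrays, Dcn on 4 and Col1a1 on 6. In DB#2 the fibroblast marker Dcn (decorin) was at least 7.87-fold higher than in M (adjusted p 1.02e-05, limma) and Pdgfra at least 2.47-fold lower (adjusted p 0.0482), each tested only through the line that read it, and the list mean was -4.32 to -4.18. The part of such cells in the DB#2 value was not tested. Macrophage and microglia markers gave -4.35 to -4.22 in DB#3 and -4.43 to -4.06 in M, and of the 8 Adgre1, Aif1, C1qa and P2ry12 were read on 0 of the 3 DB#3 arrays, Cx3cr1 on 1, Tmem119 on 2, and C1qb (mean -2.75) and Csf1r (mean 1.61) on all 3. Csf1r, the receptor of a macrophage growth factor, had means between 1.41 and 1.85 in the 5 melanoma lines. Of the 8 blood markers, Ptprc (the common leukocyte antigen) and Vav1 were read on 0 of the 17 melanoma arrays, Laptm5, Lyz2, Cd52 and Spi1 on 1 or 2, Coro1a on 16 and Itgam on all 17 (means 2.75 to 3.01).

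Ctsk and Ctss lie close together on chromosome 3, with the noncoding Gm40096 between them, and the 5 genes on each side of Ctsk were followed. Of these 10, 4 were on the array, and besides Ctss these were Arnt, Gm4349 and Hormad1. In DB#3 minus M, Arnt, the partner of the dioxin receptor and of hypoxia factors, was -0.08 ± 0.18 (SE) and Gm4349 was -0.24 ± 0.24 (SE), with 0 of both called in any comparison between melanoma lines. The likeness of other genes to Ctsk was measured by Pearson's r over the 17 melanoma arrays, which share slides and lines. Ranked were those with a gene symbol among 21454 names read throughout at least 1 melanoma line. With so many names searched, a high r can arise by chance. The 4 most alike were Zfp979 (r = 0.84), a zinc finger gene, Mocos (r = 0.77), the molybdenum cofactor sulfurase, Capn7 (r = 0.75), a calpain, and Gdpd5 (r = 0.74), a glycerophosphodiester phosphodiesterase. Without the DB#3 arrays, which set the range of Ctsk, r was 0.79 for Zfp979, 0.29 for Mocos, 0.65 for Capn7 and 0.54 for Gdpd5 over 14 arrays. The mean of Mocos was -0.29 in DB#3 and between -3.21 and -1.80 in the other melanoma lines.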

How the data were processed

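Total RNA of 7 mouse lines was hybridised to 24 Agilent single-colour arrays (Cy3). The authors deposited an intensity per spot on a linear scale (gProcessedSignal, background-corrected by Agilent Feature Extraction 10.7.3.1 per the labels); their series table held equal values (1511424 of 1511424, relative tolerance 1e-06). The deposited flags, other columns of the same files, gave outliers and whether a spot was well above background. After controls and flagged outliers were left out, 56488 of 56605 probes remained, and no member probe was lost. Here log2 intensity less the array's 75th percentile was used. Each member had 1 probe except Ctsh (3; the brightest was used), named by accession through RefSeq genes of GRCm38.p6. Lines were compared with limma 3.58.1 (R 4.3.3; lmFit and eBayes over all 24 arrays and 7 lines). A gene was tested if it was well above background on every array of at least 1 line, and called at a Benjamini-Hochberg adjusted p under 0.05 over all genes tested in that comparison. Every slide held every line, and slide as a block was an alternative, as were other scalings, background correction, filters and leaving out each array. The fit was tested on simulated data.

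The members and the gene lists were chosen with earlier results of these data known. Named genes were all 10 members, the 4 genes most like Ctsk, the 5 neighbours on each side, and from each list at most 2 called genes in each direction with the largest changes in a comparison; list genes named without a call, and background markers, were chosen after their values were seen. Signals of different probes were not compared. The number of arrays, 3 or 4 per line, limits the precision.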

Additional observations from a re-analysis of the deposited data

Results flagged for a closer look

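Among 30 groups of 4 arrays (10 genes in D, DB#1 and M0), 2 had 1 array far from the other 3, where chance flags about 1 in 20. Ctsk read -3.91 on DB#1 replicate 2, against -3.38 to -3.33 on the other DB#1 arrays. Ctsk read -4.39 on M0 replicate 1, against -6.24 to -6.14 on the other M0 arrays, and none of these 4 was well above background.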

How the results depend on the processing

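Of the 9 members other than Ctsk, the count called in M against M0 was 7, and 8 in 3 of 16 alternatives (with Ctsf after quantile normalization and when those lines' arrays were fitted alone, with Ctss when dim probes were not filtered). It was 0 in DB#2 against M, DB#3 against M, DB#1 against D, J365 against M0 and the interaction under all of theirs. In D against M it was 0 to 1 when 1 array was left out (1 without D replicate 2, Ctsf). In DB#1 against M it was 1 (Ctsl, 0.55, adjusted p 0.0402, limma) when those lines' arrays were fitted alone, a fit with its own estimate of the spread. In DB#2 against D it was 1 (Ctsc) with quantile normalization, the 75th percentile over detected probes, no scaling between arrays, slide as a block and replicate block, and 0 to 2 when 1 array was left out (2 without D replicate 1, Ctsb and Ctsc). In DB#3 against D it was 0 to 1 (Ctsh without D replicate 1). For Ctsk after quantile normalization, D minus M was -0.33 and DB#1 minus D 0.020, both reversed; the cause was not tested.

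The labels' replicate numbers do not pair the samples (same-numbered arrays correlated above 0.1 in 23 of 49 pairs, median 0.04, against a median of 0.53 for arrays of the same slide). For arrays of different slides the median was -0.31. The main fit has no slide term, so its p-values leave this likeness within slides out of account. With the replicate block Ctsc in DB#2 against D was 0.70 (adjusted p 0.0210, limma), and Ctsk in DB#2 against M stayed at 1.23 (adjusted p 0.0707).

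Ctsk in DB#2 against M was also called with no scaling between arrays (1.46, adjusted p 0.00913, limma) and when those lines' arrays were fitted alone (adjusted p 0.0290), and its alternatives gave differences from 0.47 to 1.46 and adjusted p from 0.00913 to 0.556. Normexp correction used the median spot signal, an alternative chosen after seeing the data because the planned mean signal is not a column of the files used here; the planned form was not run. Probes below background, Ctss above all, have no order between lines.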

Other observations

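Single markers of other tissues were called between melanoma lines as well. Mbp, which encodes myelin basic protein, read 2.86 ± 0.23 (SD, n = 4) in DB#1 and 0.72 ± 0.57 (SD, n = 3) in M, a difference of 2.15 ± 0.43 (SE; adjusted p 0.00347, limma), and DB#1 minus D was 2.12 ± 0.39 (SE; adjusted p 0.00978). Of 6 neural markers, 4 were tested in these 2 comparisons and only Mbp was called, beside 3.69% and 0.475% of all genes. The median over the 4 was -0.02 against M and 0.14 against D. Gfap, Mbp and Mog were read on all 17 melanoma arrays, Aqp4 on 15, Rbfox3 on 1 and Slc1a3 on 0. DB#1 was the line with the lowest Ctsk mean among the melanoma lines. Coro1a, which encodes the actin-binding coronin 1A of blood cells, was lower than in M in D (-1.55, adjusted p 0.0464), DB#1 (-1.70, adjusted p 0.0211) and DB#3 (-1.67, adjusted p 0.0476, limma), and these 3 differences share the M arrays. Not every D array read it, so in D against M it was tested through M alone. Of 8 blood markers, 2 were tested in each of these comparisons and only Coro1a was called. The shares called over all genes were 2.97%, 3.69% and 2.76%.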
